A study of Arabidopsis thaliana with 10 samples.

Results

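Pentatricopeptide repeat (PPR) proteins form one of the largest protein families of land plants. They are encoded in the nucleus, and most act in plastids or mitochondria, where their helical repeats recognise specific organelle RNAs base by base. Proteins of the P class mostly process, splice or stabilise transcripts or aid their translation, and proteins of the PLS class mostly guide the editing of C to U. Plastid PPR proteins are known to be needed early in leaf growth, when the plastid genome is first expressed. The genes described here were to be those with a single-gene probe set that the gene annotation words as pentatricopeptide repeat genes. The annotation at hand gives symbols and synonyms, not protein descriptions, and it words only 12 genes that way, of which 2, PPR336 and PPR596, had such a probe set. Both lay above the signal filter, which removed the dimmest 40% of probe sets by mean log2(signal + 16), and were 2 of 13648 probe sets tested. To widen the view, 141 symbols of known PPR genes were looked up, which added 14 genes with a single-gene probe set. That these 14 encode PPR proteins is knowledge about the named genes and not a statement of the annotation. Of the 16 genes in all, 10 passed the filter, 7 of them acting in plastids and 3 in mitochondria. They are a small part of the family, and counts over them hold for these genes only.

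The series examined vegetative shoot apices of Arabidopsis thaliana after changes to CIN-TCP genes, transcription factors that restrain growth and promote maturation of leaves. Total RNA was hybridised to Affymetrix arrays, with 2 arrays in each of 5 groups, in soil-grown plants under short days. Col was the unaltered Columbia accession at 14 DAS, the age code of the labels. The miR-3TCP plants, also in Col and at 14 DAS, carried 35S:miR-3TCP, whose artificial microRNA is aimed at TCP5, TCP13 and TCP17. The miR319b plants carried 35S:319b, a natural microRNA whose targets are TCP2, TCP3, TCP4, TCP10 and TCP24, in Col at 17 DAS. The octa plants, in Col at 18 DAS, are labelled with that word only and were taken as the combination of both microRNAs that the design describes. In BLS>>TCP4, TCP4 was driven by BLS, a promoter specific to leaves, at 14 DAS in the Ler accession, with no Ler control. Age therefore cannot be told apart from genotype where miR319b or octa is set against Col or miR-3TCP, singly or together. The same holds for octa against miR319b, at 18 and 17 DAS, and for any comparison built on it. In BLS>>TCP4, accession cannot be told apart from transgene. The targeted TCP genes are not analysed here, so their levels do not check the labels.

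Every array had a median signal of 50. Mean signals were 141 to 156 on the 8 arrays in Col and 191 and 198 on the BLS>>TCP4 arrays. Among the dimmest of 5 equal groups of tested probe sets, which held 8 of the 10 PPR genes, log2 values of the 2 replicates differed with a standard deviation of 0.27 to 0.32 in the groups in Col and 0.43 in BLS>>TCP4. As a check of the tissue, the organ primordium gene YAB3 had signals of 308 to 465 and was called in 0 comparisons by limma. JAG, the other organ primordium gene tested, was called higher than in Col in miR319b (log2 change 0.95, adjusted p = 0.0195) and octa (0.96, 0.0261), higher in octa than in miR-3TCP (0.87, 0.0299), higher with miR319b present (0.91, 0.00212) and lower in BLS>>TCP4 (-0.62, 0.0195). Of 8 meristem symbols looked up, only 1, CLV3, had a single-gene probe set, and at 0.654 to 7.26 it was not tested. Of 5 flower symbols looked up, 0 had a single-gene probe set, so flower markers could not be examined. PYK10, a gene known from roots, had 1828 to 2113 on the arrays in Col and was called lower in BLS>>TCP4, at 992 and 1508 (-0.63, adjusted p = 0.0203 by limma). The part of these markers in the PPR values was not tested.

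The mitochondrial genes come first. PPR336 (AT1G61870) encodes a P-class protein that associates with mitochondrial polysomes. Its signals were 64.6 and 67.1 in Col, and the miR-3TCP arrays gave 98.7 and 113, those of miR319b 106 and 163, those of octa 115 and 87.9 and those of BLS>>TCP4 99 and 61.8. Both Col arrays lay below every array of the 3 microRNA groups, and the BLS>>TCP4 values spanned the Col values. The log2 difference from Col was 0.57 ± 0.23 (SE) in miR-3TCP, 0.85 ± 0.23 for miR319b, 0.51 ± 0.23 for octa and 0.21 ± 0.23 for BLS>>TCP4. None passed the test, limma's two-sided moderated test with Benjamini-Hochberg adjustment over all 13648 probe sets. The adjusted p was 0.0676 in miR319b (unadjusted 0.00399, 95% interval 0.34 to 1.36) and 1, 0.343 and 0.537 in the other groups in the same order. In these bulk samples fewer cells of a type and less RNA per cell cannot be told apart. These 4 comparisons share the 2 Col arrays, so a low value in Col enters all of them. Of the comparisons without Col, octa against miR-3TCP gave -0.06 ± 0.23 (95% interval -0.57 to 0.45, adjusted p = 0.964) and octa against miR319b -0.35 ± 0.23 (-0.86 to 0.17, 0.638).

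PPR596 (AT1G80270) encodes a mitochondrial protein that affects how fully an rps3 site is edited. Signals were 133 and 111 in Col, and the miR-3TCP arrays gave 163 and 130, those of miR319b 157 and 240, those of octa 195 and 132 and those of BLS>>TCP4 201 and 152. Arrays of miR319b and BLS>>TCP4 lay above both Col arrays, and those of miR-3TCP and octa overlapped them. Differences from Col were 0.23, 0.61, 0.36 and 0.48 ± 0.24 on the log2 scale, taking the groups in the same order, with adjusted p of 1, 0.17, 0.545 and 0.173 by limma. Leaving out 1 array at a time, they ran from 0.09 to 0.38, from 0.33 to 0.90, from 0.11 to 0.62 and from 0.29 to 0.66. For both genes the 2 miR319b arrays stood far apart, and replicate 2 was the higher one. The median of the 2 genes in miR319b against Col was 0.73, and it was 1.01 without miR319b replicate 1 and 0.46 without replicate 2, against -0.01 over all probe sets tested.

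MEF8S (AT4G32450), a mitochondrial editing factor close in sequence to MEF8, was the least variable of the mitochondrial genes. Its signals ran from 21.1 to 35.8 over the 10 arrays, with the lowest in octa and the highest in BLS>>TCP4. It was called in 0 comparisons, and its unadjusted p by limma was never below 0.05. Whether its probes also read MEF8 was not tested.

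**Figure D1:**
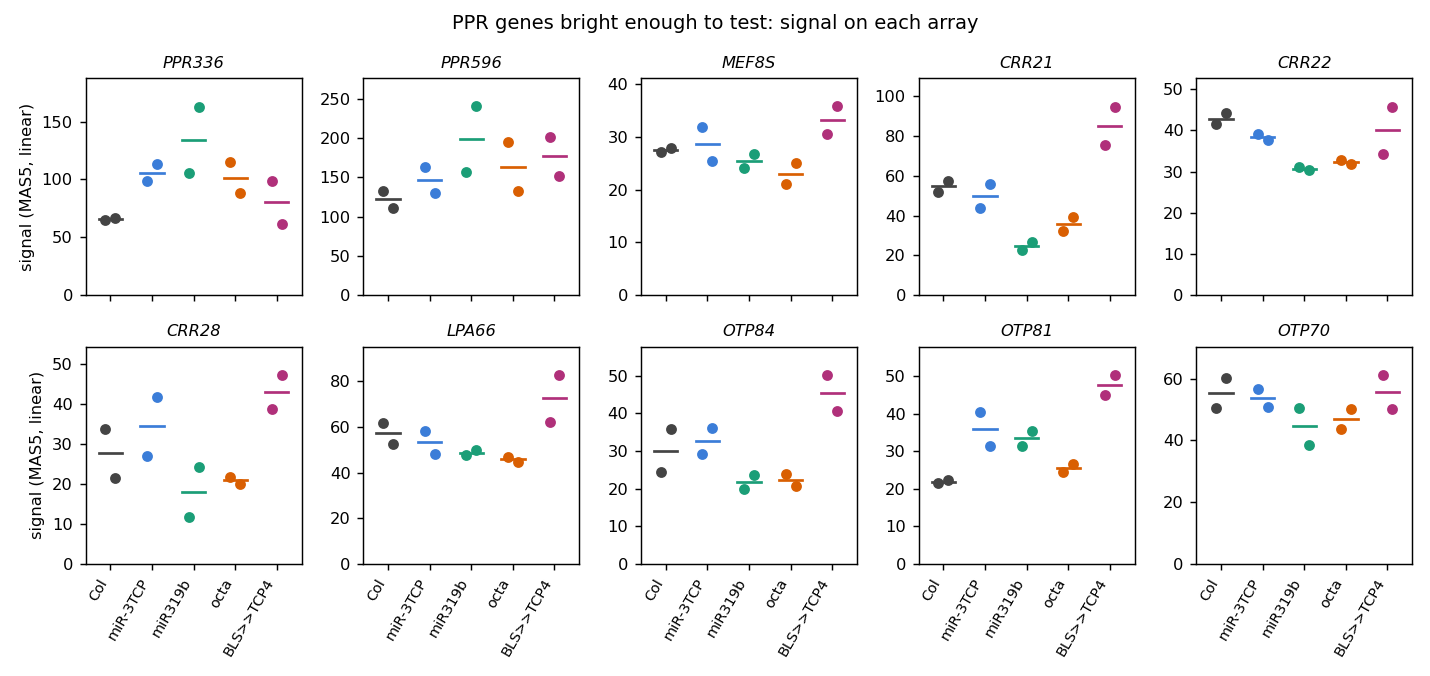
MAS5 signal (linear scale, from 0) of the 10 PPR genes tested, 1 panel per gene; each point is an array and each bar the mean of 2 arrays. CRR21 sits at 22.7 to 39.5 in miR319b and octa, at 43.6 to 57.4 in Col and miR-3TCP, and at 75.5 and 94.7 in BLS>>TCP4, while PPR336 has its 2 Col arrays below all 6 arrays of the microRNA groups.

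The question of miR319-targeted TCP genes is put by miR319b against Col, where 1 of the 10 PPR genes was called, and it was lower, against 3.8% of all probe sets called in either direction. This was CRR21 (AT5G55740), which encodes the PLS-class factor that edits a site in ndhD, a subunit of the plastid NDH complex. Its signals were 52.0 and 57.4 in Col and 22.7 and 26.6 in miR319b, so the groups stood well apart. The log2 change was -0.80 ± 0.16 (95% interval -1.16 to -0.44, adjusted p = 0.0323 by limma). Over all probe sets 2.64% were called lower in this comparison and 1.16% higher, and in the dimmest group 0.989% were called lower. Leaving out any 1 of the 4 arrays lost the call, as it did most calls over all probe sets. The change of CRR21 then ran from -0.87 to -0.73.

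Most other plastid PPR genes had lower values in miR319b without passing the test. CRR22 (AT1G11290), which edits sites in ndhB, ndhD and rpoB, had 41.5 and 44.2 in Col against 31.0 and 30.4 in miR319b (log2 change -0.33 ± 0.15, adjusted p = 0.213). Its groups did not overlap, and the same held for OTP84, LPA66 and OTP70 in the same direction. OTP84 (AT3G57430), an editing factor for ndhB, ndhF and psbZ, had 24.4 and 35.7 in Col and 19.8 and 23.6 in miR319b. LPA66 (AT5G48910), which edits psbF of photosystem II, had 61.9 and 52.7 against 47.6 and 49.7. OTP70 (AT4G25270), needed to splice the rpoC1 intron, had 50.5 and 60.1 against 50.5 and 38.6, a separation smaller than the digits shown. CRR28 (AT1G59720), an editing factor for ndhB and ndhD, overlapped between groups, with 33.8 and 21.5 against 11.8 and 24.2. With MEF8S, 6 of the 10 genes were lower in miR319b without overlap, against 30.3% of all probe sets and 24.9% of the dimmest group, and 3 were higher, against 26.5%. Of the 7 plastid genes 6 had negative changes, with a median of -0.28, and of the 3 mitochondrial genes 2 had positive ones, with a median of 0.61. The median was -0.01 over all probe sets and 0.006 in the dimmest group, and 51.4% and 49% of them had negative changes. An unadjusted p under 0.05 by limma held for 3062 of 13648 probe sets, 1352 of them higher and 1710 lower. Among the 10 genes it held for 5, with PPR336, PPR596 and OTP81 higher and CRR21 and CRR22 lower.

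OTP81 (AT2G29760) was the plastid gene with another pattern. It encodes an editing factor for several plastid transcripts, one of them an rps12 intron, and is also known as QED1. Its signals were 21.5 and 22.3 in Col, and the miR-3TCP arrays gave 40.5 and 31.5, those of miR319b 31.5 and 35.3, those of octa 24.4 and 26.6 and those of BLS>>TCP4 45.1 and 50.2. Both Col arrays were the lowest of the 10, and the BLS>>TCP4 arrays were the highest. In miR319b against Col the log2 change was 0.38 ± 0.15 (adjusted p = 0.161).

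**Figure D2:**
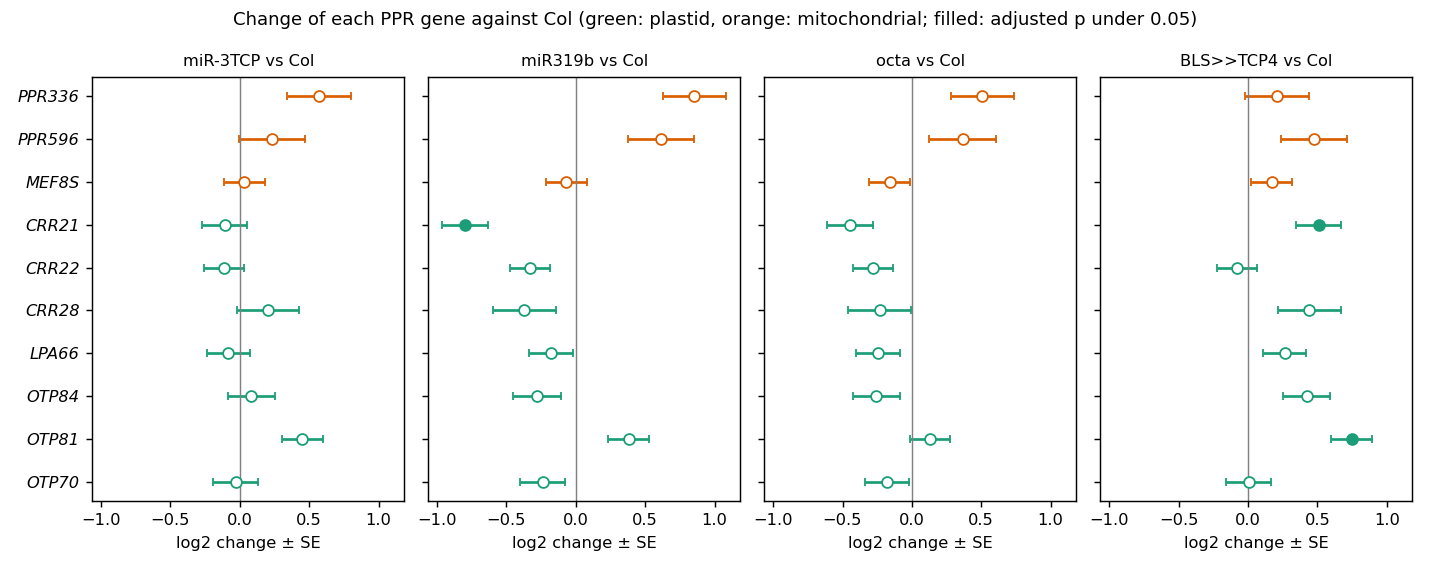
Log2 change against Col with its standard error for each of the 10 PPR genes, 1 panel per comparison; green marks genes acting in plastids, orange those acting in mitochondria, and filled points passed an adjusted p of 0.05 by limma. Only CRR21 in miR319b (-0.80) and CRR21 and OTP81 in BLS>>TCP4 (0.51 and 0.75) are filled; all panels share the Col arrays.

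The combined microRNAs are assessed by octa against Col, where limma called 0 of the 10 genes. Over all probe sets it called 1.8% (0.271% higher and 1.52% lower). An unadjusted p under 0.05 held for 2004 of 13648 probe sets and for 1 of the 10 genes. That gene was CRR21, with 32.4 and 39.5 in octa (log2 change -0.45 ± 0.16, unadjusted p = 0.021, adjusted p = 0.231). Again 6 of 7 plastid genes had negative values, against 59% of all probe sets and 47.6% of the dimmest group. Their median was -0.24, against -0.05 over all probe sets and 0.01 in the dimmest group. Arrays did not overlap, with octa lower, for 6 of the 10 genes, against 32% of all probe sets and 21.3% of the dimmest group, and with octa higher for 2, against 17.5%. Calls over all probe sets in this comparison were 37 higher and 208 lower, with quantile normalization 49 and 105, and with median centring 31 and 89.

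Presence of miR319b, again with an older age, also separates octa from miR-3TCP, a comparison that shares no array with miR319b against Col. All 7 plastid genes had lower values in octa, and none of their groups overlapped. Values were lower in octa for 58.4% of all probe sets and 46.6% of the dimmest group. With MEF8S, 8 of the 10 genes were lower without overlap and 0 higher. Non-overlap held for 31.5% of all probe sets with octa lower, 20.4% of the dimmest group, and 17.6% with octa higher. CRR21 had 43.6 and 56.0 in miR-3TCP (log2 change -0.34 ± 0.16), CRR28 had 26.9 and 41.8 against 21.7 and 20.0 in octa, and OTP84 had 29.1 and 36.0 against 23.8 and 20.8. The median of the plastid genes was -0.32, against -0.04 over all probe sets. Limma called 0 of the 10 genes, against 2.42% of all probe sets (0.308% higher and 2.11% lower). An unadjusted p under 0.05 held for 1801 of 13648 probe sets and for 0 of the 10 genes. Among these 10 the smallest adjusted p was 0.388, for OTP81 (-0.32 ± 0.15). Calls over all probe sets were 42 higher and 288 lower, and 71 and 221 with quantile normalization.

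Across the 10 genes the changes in these 2 comparisons had r = 0.64 (Spearman's rho 0.70), and 8 of 10 had the same sign, against r = 0.53 and 62.4% over all probe sets. These are descriptions over genes measured on the same arrays, which are not independent. OTP81 and PPR336 were the genes with opposite signs, each positive against Col and negative against miR-3TCP.

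**Figure D3:**
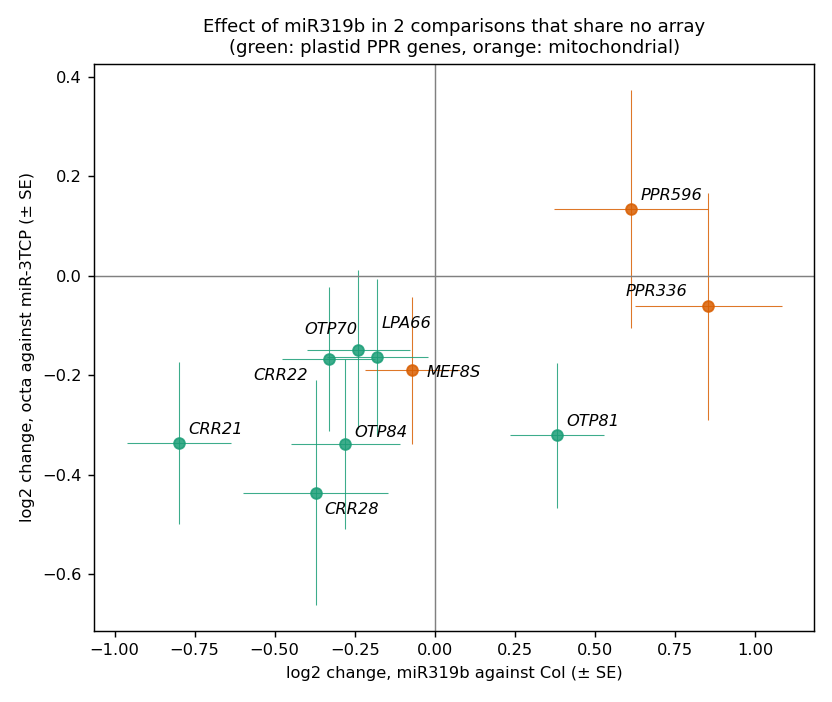
Log2 change of the 10 PPR genes in miR319b against Col (x axis) and in octa against miR-3TCP (y axis), with standard errors; green marks plastid and orange mitochondrial genes. All 7 plastid genes lie below 0 on the y axis and 6 of them also left of 0 on the x axis, with OTP81 to the right.

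Taking miR319b and octa together against Col and miR-3TCP gave 4 arrays against 4. CRR21 was lower with miR319b, at 22.7 to 39.5 against 43.6 to 57.4, with no overlap (log2 change -0.57 ± 0.11, 95% interval -0.82 to -0.31, adjusted p = 0.0137 by limma). Over all probe sets 9.61% were called, 7.25% lower and 2.36% higher, and in the dimmest group 2.89% were called lower. CRR21 was the only one of the 10 genes called. The call was lost without Col replicate 2, miR-3TCP replicate 2 or octa replicate 1, and it held without any other array of the 8. Calls over all probe sets were also fewer whichever array was left out, and the change of CRR21 ran from -0.64 to -0.50. CRR22 ranged from 30.4 to 32.9 with miR319b and from 37.6 to 44.2 without (-0.25 ± 0.10, adjusted p = 0.176), and OTP84 from 19.8 to 23.8 and from 24.4 to 36.0 (-0.31 ± 0.12, adjusted p = 0.158). CRR28 had -0.40 ± 0.16 (adjusted p = 0.162) and overlapped. In all, 4 of the 10 genes were lower without overlap, the plastid genes CRR21, CRR22, OTP84 and OTP70, against 12.7% of all probe sets and 6.37% of the dimmest group, and 0 were higher without overlap, against 5.58%. PPR336 and PPR596 had 0.40 ± 0.16 and 0.37 ± 0.17, with adjusted p of 0.175 and 0.222 and overlapping arrays. With quantile normalization the calls over all probe sets went from 322 higher and 989 lower to 490 and 875.

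Added TCP4 activity is assessed by BLS>>TCP4 against Col, where 2 of the 10 PPR genes rose and 0 fell, against 25.9% of all probe sets called in either direction. OTP81 rose from 21.5 and 22.3 to 45.1 and 50.2 (log2 change 0.75 ± 0.15, 95% interval 0.42 to 1.07, adjusted p = 0.0053 by limma). It held without each of the 4 arrays in turn, with adjusted p from 0.00941 to 0.0403. CRR21 rose from 52.0 and 57.4 to 75.5 and 94.7 (0.51 ± 0.16, adjusted p = 0.0439). That call was lost without Col replicate 1, Col replicate 2 or BLS>>TCP4 replicate 2, and with quantile normalization (adjusted p = 0.0568 by limma). As arrays were left out, the change of CRR21 ran from 0.37 to 0.65. Calls over all probe sets were then fewer without a Col array and more without a BLS>>TCP4 array. Over all probe sets 17.3% were called higher and 8.61% lower. In the dimmest group, which holds both called genes, 12% were called higher and 8.46% lower. With so few genes, 2 of 10 is close to the background. With quantile normalization the calls over all probe sets went from 2355 higher and 1175 lower to 1214 and 1321.

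The other PPR genes were mostly higher in BLS>>TCP4 without passing. OTP84 had 50.1 and 40.7 (0.42 ± 0.17, unadjusted p = 0.0338, adjusted p = 0.0975), CRR28 had 38.7 and 47.1, and LPA66 had 62.3 and 82.7, each above both Col arrays. CRR22, at 34.2 and 45.7, and OTP70, at 61.2 and 50.1, overlapped Col. Of the 7 plastid genes 6 had positive changes (median 0.42), and so had all 3 mitochondrial genes (median 0.21). Changes were positive for 59.6% of all probe sets (median 0.10) and 57.1% of the dimmest group (median 0.07). Non-overlap with higher values held for 7 of the 10 genes, against 38.1% of all probe sets and 33.3% of the dimmest group, and with lower values for 0, against 21.9%. The filter used the mean over all 10 arrays, so it favoured dim genes that are high in BLS>>TCP4. MEF8S, CRR28 and OTP84, all among the 7, had log2 means of 5.62, 5.88 and 5.94 there, their highest of the 5 groups. Over the other groups alone, each had a mean below the filter's 5.41. Signs and non-overlap counts in this comparison therefore cannot be read as a rise of the set. Green leaf genes moved in the same comparison. RCA, PSAE-1 and PSAN, of Rubisco activation and photosystem I, were all called higher (3 of 3, median 1.05), against 17.3% of all probe sets. In the brightest of the 5 equal groups, where they lie, 35.2% were called higher, with a median of 0.30. Of 6 green leaf symbols looked up, only these 3 had a single-gene probe set. PSAE-1 was also called lower in octa than in miR-3TCP (log2 change -0.45, adjusted p = 0.043 by limma), where PSAN and RCA were not called. In that comparison 2.11% of all probe sets were called lower. The summed signal of the 3 genes was 7434 to 7796 in Col, 7495 to 7693 in miR-3TCP and 7389 to 7494 in miR319b. It was 6478 to 6686 in octa and 15550 to 16100 in BLS>>TCP4, and none of the 3 genes was at 0. The part of green tissue in the PPR values was not tested.

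The artificial microRNA alone is assessed by miR-3TCP against Col at equal age, and 0 of the 10 genes were called by limma, against 0.00733% of all probe sets. Over all 13648 probe sets 397 had an unadjusted p under 0.05 by limma, 139 of them higher. Among the 10 genes there were 2, both higher, PPR336 (unadjusted 0.0322) and OTP81 (0.45 ± 0.15, unadjusted 0.0114). Neither gene's arrays overlapped between the groups, and both had an adjusted p of 1 by limma. They were the 2 of 10 genes higher without overlap, against 18.7% of all probe sets, and 1, CRR22, was lower, against 19.3%. The plastid genes had a median of -0.03, and values of CRR21 overlapped, with 43.6 and 56.0 in miR-3TCP.

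Adding miR-3TCP to miR319b, octa against miR319b, gave 0 called PPR genes, against 0% of all probe sets called by limma. By their age codes the octa plants were also older than the miR319b plants. An unadjusted p under 0.05 held for 1342 of 13648 probe sets and for 0 of the 10 PPR genes. The 2 smallest p-values were those of CRR21 (0.35 ± 0.16, adjusted p = 0.514), whose 2 octa arrays lay above both miR319b arrays, and OTP81 (-0.25 ± 0.15, adjusted p = 0.586). PPR336 and PPR596 had -0.35 ± 0.23 and -0.25 ± 0.24. Of the 10 genes 2 were higher without overlap, against 17.4% of all probe sets, and 2 lower, against 27.9%. The interaction, which asks whether the effect of miR-3TCP differs when miR319b is present, was called for 0 of the 10 genes, against 0.00733% of all probe sets. That comparison includes the same difference in age. Limma's unadjusted p was 0.0181 for PPR336 (-0.92 ± 0.32) and 0.00677 for OTP81 (-0.70 ± 0.21), each with an adjusted p of 0.668. Across the 10 genes, changes in miR-3TCP against Col and in octa against miR319b, which share no array, had r = -0.75, against -0.03 over all probe sets. The same sign held for 3 of 10, against 47.3%. These too are descriptions over genes measured on the same arrays, which are not independent.

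The 6 PPR genes below the filter were not tested. OTP43 (AT1G74900, signals 11.7 to 33.1), a splicing factor for mitochondrial nad1, and OTP85 (AT2G02980, 7.49 to 35.5), an editing factor for plastid ndhD, lay nearest below the filter at percentiles 34.8 and 33.8. MEF8S and CRR28, at percentiles 40.5 and 40.6, lay nearest above it. OTP43 had 14.5 and 15.8 in Col, and the miR-3TCP arrays gave 23.0 and 19.3, those of miR319b 17.0 and 11.7, those of octa 12.9 and 13.9 and those of BLS>>TCP4 33.1 and 22.1, where both arrays lay above Col. OTP85 showed how little such dim signals hold, with 7.49 and 35.5 on the 2 Col arrays. OTP87 (AT1G74600), which edits mitochondrial nad7 and atp1, had 12.7 and 10.8 in BLS>>TCP4 and 13.5 to 20.4 elsewhere. OTP86 (AT3G63370), which edits plastid rps14, ran from 4.54 to 20.0, and OTP80 (AT5G59200), which edits plastid rpl23, from 0.578 to 2.32. LOJ (AT2G39230), named for its expression at the junctions of lateral organs, had 13.2 and 10.1 in Col and 16.9 and 17.4 in miR319b, and 13.5 and 13.4 in octa.

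**Figure D4:**
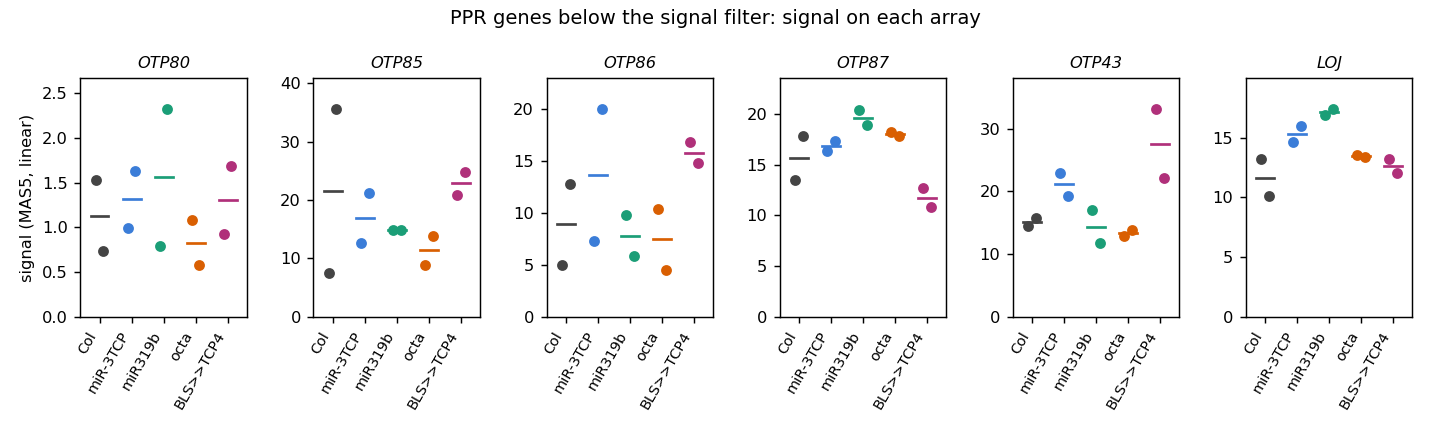
MAS5 signal (linear scale, from 0) of the 6 PPR genes below the filter, 1 panel per gene with its own axis; each point is an array and each bar the mean of 2 arrays. Signals reach at most 35.5, and replicates of OTP85, OTP86 and OTP80 differ widely within groups.

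PPR proteins work beside other nuclear-encoded factors of organelle RNA, of which 5 of 81 symbols looked up had a tested gene. With miR319b present, 4 of the 5 were lower by limma and 0 higher, against 7.25% and 2.36% of all probe sets (median -0.63, against -0.02). These were CAF1 (-0.63 ± 0.10, adjusted p = 0.00487) and the related CRM-domain genes CFM3A (-0.68 ± 0.09, 0.00253) and CFM3B (-0.41 ± 0.11, 0.049), whose products splice plastid introns, and RH39 (-0.70 ± 0.15, 0.0194), a helicase gene of plastid ribosomal RNA maturation. CFM3A had 166 and 189 in Col, 181 and 199 in miR-3TCP, 99.3 and 98.3 in miR319b, and 118 on both octa arrays. CAF1 rose in BLS>>TCP4 (0.75 ± 0.14, adjusted p = 0.00458), as did AT5G55580, the mTERF9 gene (0.87 ± 0.24, 0.027), while the other 3 were not called, and 17.3% of all probe sets were called higher there. Limma also called CFM3A lower in miR319b against Col (-0.75, adjusted p = 0.0203) and CAF1 lower in octa against Col (-0.67, 0.0486). In octa against miR-3TCP it called CAF1 (-0.77, 0.0299) and CFM3A (-0.62, 0.0409) lower. Of all probe sets, 2.64%, 1.52% and 2.11% were called lower in these comparisons, in the same order. These calls were not repeated under other settings.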

How the data were processed

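The deposited values are probe set intensities on a linear scale, which the authors made with the MAS5 algorithm, as the submitters' processing notes record. The sources used here give no version, settings, detection calls or genome build. Leaving out 64 AFFX controls, 22746 probe sets remained, and 13513 of them had 1 gene in the platform annotation, 503 several and 8730 none listed. Of the 13513, 13436 matched a RefSeq gene table (TAIR10.1), used for names only. Signals were taken as log2(value + 16), and the 13648 probe sets with a mean at or above the 40th percentile (log2 5.41, a signal of 26.4) were tested. All 10 arrays entered 1 model with a term per group (limma 3.58.1 in R 4.3.3, eBayes with intensity trend, 5 residual degrees of freedom), in 8 comparisons. Calls needed an adjusted p (Benjamini-Hochberg, over all probe sets) under 0.05. Fold changes on this scale understate those of dim probe sets. The number of arrays limits the precision.

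The labels do not say that replicates came from separate plants or cultures, so the p-values rest on a spread between arrays that may be technical. The genes and lists were chosen with earlier results of these data known. The named genes are all 10 tested PPR genes, with log2 changes for those called, those of unadjusted p under 0.05, the 2 of smallest p in each comparison, and PPR336 and PPR596 throughout, plus the 6 untested genes, called factors of organelle RNA and markers. The model was tested on simulated data. Alternatives were other pseudocounts (1 and 64), filters (none, 60th percentile), normalizations, moderation, arrays in the model, a replicate block and leaving out arrays. No sequence was printed, since none was at hand for these genes.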

Additional observations from a re-analysis of the deposited data

How the results depend on the processing

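PPR336 and PPR596 were called in 0 of 8 comparisons under each alternative run on these 2 genes. When all 10 tested PPR genes are counted, the called genes become 1 in miR319b against Col, 2 in BLS>>TCP4 and 1 with miR319b present, and medians against Col become 0.057 for miR-3TCP, -0.209 for miR319b and -0.205 for octa, with -0.183 with miR319b present, -0.021 in octa against miR319b and -0.062 for the interaction, since the wider set holds mainly plastid genes. OTP81 in BLS>>TCP4 kept its call in each alternative that tested it (adjusted p 0.00429 to 0.0415). The count in BLS>>TCP4 was 1 with a pseudocount of 1, no filter, quantile normalization, median centring or only the arrays compared, CRR21 being lost (adjusted p 0.054 to 0.121). It was 0 at the 60th percentile filter, where only PPR336 and PPR596 are tested, as were the counts of 0 in miR319b and with miR319b present there. In miR319b against Col the count was 0 with no filter, where more probe sets are tested (CRR21 adjusted p = 0.0731).

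Leaving out 1 array at a time leaves 1 array in a group. In miR319b against Col most calls over all probe sets were then lost, with that of CRR21 among them. Medians of PPR336 and PPR596 ran from 0.456 to 1.011 in miR319b, from -0.575 to -0.020 in octa against miR319b and from -0.975 to -0.420 for the interaction, all ends set by a miR319b array. Signs of values that had not passed turned for PPR336 in BLS>>TCP4 (-0.073 to 0.490) and in octa against miR-3TCP (-0.227 to 0.102), and for PPR596 in octa against miR-3TCP (-0.122 to 0.389) and against miR319b (-0.530 to 0.033). The cause was not tested.

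Same-numbered replicates deviated together in some pairs of groups and not in others (correlations of deviations from group means -0.401 to 0.451 over 10 pairs of groups). The highest was that of Col with miR-3TCP and the lowest that of miR319b with octa. No pairing held over all groups, so the numbers were not taken as pairs. Whether Col and miR-3TCP shared a batch was not tested. With the replicate block CRR21 in miR319b had -0.799 and OTP81 in BLS>>TCP4 adjusted p = 0.0077, and no PPR call changed. Most signals of these genes are dim, and no detection calls were at hand, so small differences may be missed.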
